A study of Mus musculus with 10 samples.

Results

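Polycomb repressive complex 2 (PRC2) places methyl groups on lysine 27 of histone H3, a mark of silenced genes. Its catalytic subunit is either Ezh2 or Ezh1, and Eed, Suz12 and the histone-binding proteins Rbbp4 or Rbbp7 complete the core. Jarid2 and the Polycomb-like proteins Phf1, Mtf2 and Phf19 are accessory subunits that help bring the core to chromatin. Ezh2 is typically abundant in dividing cells, whereas Ezh1 is found in resting and differentiated cells, and loss or inhibition of Ezh2 has been reported to favour osteogenic differentiation.

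The genes of these 10 subunits were taken from the gene tables by the Ensembl ID of each symbol, and all 10 were found among the 40620 genes of the count table. All 10 also passed the filter on low counts. RNA-seq had been performed on MC3T3-E1 cells, a clonal line of mouse calvarial preosteoblasts with no genetic change named in the labels, at 5 stages with 2 replicates each, named A and B (n = 10). Subconfluent and confluent cells were grown in αMEM with 10% serum. From confluence, cells were kept for 24 h, 14 d or 21 d in osteogenic medium, in which β-glycerophosphate was at 10 mM and ascorbic acid at 50 µg/ml. No culture of 14 d or 21 d without osteogenic medium was among the samples, so time, cell density and medium cannot be told apart after confluence.

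Total counts ran from 44736156 to 162939333 per sample. Of 7 osteoblast markers, 6 were higher at 21 d than in subconfluent cells (adjusted p under 0.05, edgeR), against 27.3% of all genes. The exception was Col1a1 (log2 fold change -0.01 ± 0.21 SE, adjusted p = 0.98, edgeR). From 14 d to 21 d, Sp7, Alpl and Col1a1 were lower and Dmp1 higher, against 5.95% and 3.77% of all genes. Ibsp, a matrix protein of mineralizing bone, went from a mean of 15.93 RPKM in subconfluent cells to 2540.0 RPKM at 21 d. RPKM is a read count scaled to gene length and library size. At 14 d Ibsp stood at 4081 and 4374 RPKM. Among other lineages, Ptprc of blood cells and Myod1 of muscle were listed at 0 in all samples, and Adipoq, Plin1, Cdh5 and Kdr were below 0.1 RPKM in all samples. Other markers of these lineages were detected, with Csf1r at 1.83 to 3.19 RPKM, Des at 0.193 to 0.604 RPKM and Fabp4 at no more than 1.06 RPKM. Fabp4 and the endothelial gene Tek, the latter at no more than 0.055 RPKM, were higher at 21 d than in subconfluent cells (adjusted p = 0.014 and 0.019, edgeR). Fabp4 was highest at 24 h, at 0.929 and 1.06 RPKM, against 0.406 and 0.198 RPKM at 21 d. The adipocyte marker Pparg, at no more than 0.196 RPKM, was lower at 21 d than in subconfluent cells (log2 fold change -1.67 ± 0.54 SE, adjusted p = 0.035, edgeR). The blood marker Tyrobp stood at 179.06, 213.58 and 256.33 RPKM in confluent replicate B, 14 d replicate B and 21 d replicate A, and at 0.842 RPKM or less in the other samples. Of 5 chondrocyte markers, Col2a1 and Sox9 were expressed, while Acan and Matn1 were below 0.1 RPKM in all samples. The fifth, Col10a1, rose from a mean of 0.107 to 3.78 RPKM between subconfluent cells and 21 d (log2 fold change 5.19 ± 0.73 SE, adjusted p = 8.4e-04, edgeR). Its 21 d replicates were at 1.67 and 5.88 RPKM. In the same comparison Col2a1 fell from a mean of 156.6 to 75.7 RPKM (-0.93 ± 0.13, adjusted p = 7.7e-04, edgeR). Sox9 rose from 17.9 to 35.6 RPKM (1.11 ± 0.14, adjusted p = 4.5e-04, edgeR). The part of such cells in the results was not tested. The 24 h replicates stood apart from each other, with an SD of the log2 ratio of A to B of 0.683 across 16133 genes against 0.285 to 0.324 at the other stages. One set of index labels was used for the first 3 stages and another for the late stages (14 d and 21 d), so index set and late stage cannot be told apart.

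The subunit genes did not move together during osteogenic culture. From subconfluent cells to 21 d, 6 of 10 passed an adjusted p of 0.05 in edgeR's quasi-likelihood test with Benjamini-Hochberg adjustment over 20808 genes. Of all genes tested, 50.7% passed in this comparison, so the share of subunit genes was close to the background. Ezh2, Suz12, Rbbp4 and Rbbp7 fell, against 23.5% of all genes that passed and were lower. Ezh1 and Phf1 rose, against 27.3% of all genes that passed and were higher. With a change of more than 2-fold as well, 5 of 10 genes passed, Rbbp4 no longer among them, and 27.6% of all genes. Eed, Jarid2, Mtf2 and Phf19 did not pass. Over the 10 genes the median log2 fold change was -0.29, and it was 0.04 over all genes tested. In bulk RNA a lower level per cell and a smaller number of expressing cells cannot be told apart.

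**Figure D1:**
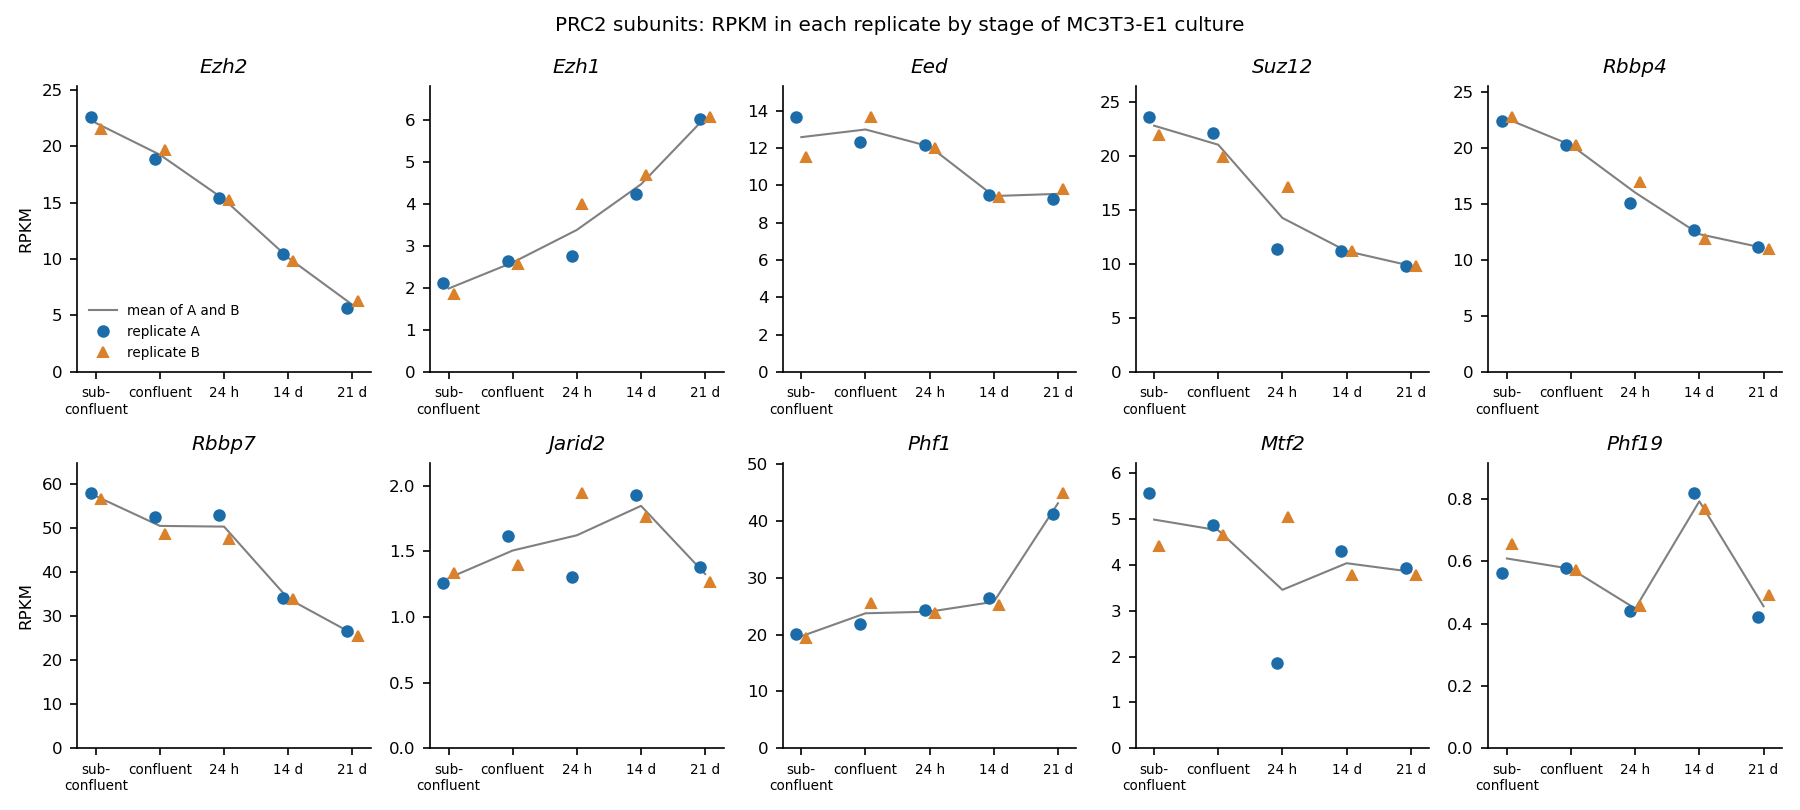
RPKM (y axis, from 0) of the 10 PRC2 subunit genes at the 5 stages (x axis, not to scale in time); circles are replicate A, triangles replicate B, and the line joins the means of the 2 replicates. Ezh2 fell at every step from 22.1 to 5.95 RPKM while Ezh1 rose from 1.98 to 6.06 RPKM, and the 24 h replicates of Mtf2 lay at 1.86 and 5.05 RPKM.

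The promoter sequences of the genes that fell and of Ezh1, which rose, are shown here because they moved in opposite directions over the same samples. RefSeq entries on GRCm38.p6 were found for all 10 genes, with 12 entries in total, and the 250 bases before each transcription start were searched on both strands for the letters CCAAT, for the E2F core letters TTCCCGC or TTGGCGC, and for the cell cycle homology region (CHR) letters TTTGAA or TTCGAA. On opposite strands, the first of these words can share bases with the second E2F word, which was not the case in the sequences shown. CCAAT was found in 33.8% of 32851 promoters in the table, the E2F core in 5.6% and the CHR in 17.1%. All 4 genes that fell held CCAAT, and Ezh1 and Phf1 held none of the 3 words. CCAAT was also present for Jarid2 and Mtf2, in one of the entries of each. The E2F core was found for Suz12, Rbbp4 and Phf19, and the CHR for Suz12, Eed and an entry of Mtf2. Ezh2 and Rbbp7, which fell, held neither the E2F core nor the CHR. Eed, Mtf2 and Phf19 did not pass from subconfluent cells to the last stage. As for Ezh2 below, annotated exons reached into the windows of Phf1, Eed and Phf19, whose sequences are not shown. In the sequences, read 5′ to 3′ on the strand of the gene, capitals mark the words found, and ATTGG and TTCAAA are CCAAT and TTTGAA on the other strand. For Ezh2, exons are annotated across the window and only the 3 CCAAT matches with up to 10 flanking bases on each side are given, at 90, 64 and 11 bases before the start.
Ezh2, chr6:47595106-47595130, minus strand: cggccctctgATTGGacgggcgccc
Ezh2, chr6:47595080-47595104, minus strand: ctcgcatcctCCAATcggagaggcg
Ezh2, chr6:47595031-47595051, minus strand: agcgatggcgATTGGgttgct
Suz12, chr11:79992856-79993105, plus strand: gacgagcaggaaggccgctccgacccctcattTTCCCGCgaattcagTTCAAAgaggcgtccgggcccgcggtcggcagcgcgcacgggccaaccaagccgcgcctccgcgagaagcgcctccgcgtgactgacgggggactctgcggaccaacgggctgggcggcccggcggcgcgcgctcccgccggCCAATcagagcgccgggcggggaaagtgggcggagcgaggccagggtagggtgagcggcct
Rbbp4, chr4:129335371-129335620, minus strand: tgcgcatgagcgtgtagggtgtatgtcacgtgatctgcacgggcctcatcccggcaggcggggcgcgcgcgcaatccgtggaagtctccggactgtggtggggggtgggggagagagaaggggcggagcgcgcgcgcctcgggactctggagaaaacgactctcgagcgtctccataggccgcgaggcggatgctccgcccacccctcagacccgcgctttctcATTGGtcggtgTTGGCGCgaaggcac
Rbbp7, chrX:162760122-162760371, plus strand: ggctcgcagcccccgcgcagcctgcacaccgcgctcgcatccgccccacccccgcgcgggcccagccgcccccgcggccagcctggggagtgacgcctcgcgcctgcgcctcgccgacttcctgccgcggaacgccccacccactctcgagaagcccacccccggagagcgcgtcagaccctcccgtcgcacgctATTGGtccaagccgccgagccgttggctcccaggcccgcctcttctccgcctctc
Ezh1, chr11:101226464-101226713, minus strand: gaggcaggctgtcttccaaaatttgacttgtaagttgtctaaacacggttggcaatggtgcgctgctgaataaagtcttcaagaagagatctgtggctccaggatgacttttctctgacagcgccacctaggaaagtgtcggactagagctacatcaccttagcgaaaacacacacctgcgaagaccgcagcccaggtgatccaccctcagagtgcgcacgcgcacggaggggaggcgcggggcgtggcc
A match of these short words is a description of the sequence and not a binding site.

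The catalytic subunits moved in opposite directions. Ezh2 (ENSMUSG00000029687), the methyltransferase typical of dividing cells, is encoded on the minus strand of chr6:47530139-47595341 on mm10. Ezh2 measured 22.6 and 21.5 RPKM in subconfluent cells, 18.9 and 19.6 RPKM in confluent cells, 15.4 and 15.2 RPKM at 24 h, 10.4 and 9.84 RPKM at 14 d, and 5.64 and 6.26 RPKM at 21 d. Both replicates of each stage lay below both replicates of the stage before, with no overlap at any step. Ezh2 was 3.41-fold lower at 21 d than in subconfluent cells (log2 fold change -1.77 ± 0.09 SE, adjusted p = 9.3e-06, edgeR). It passed in each of the later steps, with -0.47 ± 0.09 from 24 h to 14 d (adjusted p = 0.012) and -0.84 ± 0.09 from 14 d to 21 d (adjusted p = 0.0014). The step to confluence (-0.22 ± 0.09, adjusted p = 0.24) and the step to 24 h (-0.24 ± 0.09, adjusted p = 0.16) did not pass in edgeR.

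Ezh1 (ENSMUSG00000006920, minus strand of chr11:101191115-101226463 on mm10), the alternative methyltransferase, measured 2.11 and 1.86 RPKM in subconfluent cells and 2.64 and 2.57 RPKM in confluent cells. It measured 2.76 and 4.004 RPKM at 24 h, 4.24 and 4.69 RPKM at 14 d, and 6.04 and 6.08 RPKM at 21 d. The replicates of neighbouring stages did not overlap, although the 24 h replicates lay far apart. Ezh1 was 3.29-fold higher at 21 d than in subconfluent cells (log2 fold change 1.72 ± 0.15 SE, adjusted p = 9.2e-05, edgeR). From confluence to 14 d it rose by 1.0 ± 0.15 on the log2 scale (adjusted p = 0.0026), whereas the last step, from 14 d to 21 d, gave 0.36 ± 0.15 and did not pass (adjusted p = 0.19). The step from 24 h to 14 d passed narrowly at 0.54 ± 0.15 (adjusted p = 0.048, edgeR) and did not pass under 16 of the alternative settings.

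The ratio of Ezh2 to Ezh1 was then calculated from the RPKM values in each sample. It was 10.8 and 11.5 in subconfluent cells, 7.14 and 7.66 in confluent cells, 5.58 and 3.80 at 24 h, 2.45 and 2.10 at 14 d, and 0.935 and 1.03 at 21 d. No replicate of one stage reached the range of the next. The mean ratio declined from 11.2 ± 0.559 (SD, n = 2) to 0.982 ± 0.0665 (SD, n = 2), an 11.4-fold fall. In an exact permutation test over the 945 ways of dividing the 10 samples into 5 pairs, with the F statistic of the log2 ratio, p was 0.00106, the smallest this design can give, and 0.00212 when adjusted over the 2 ratios tested. No pairwise test of the ratio was run, since a permutation test of 2 samples against 2 cannot go below 0.33.

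Where the ratio stands against 1 depends on the gene lengths. The table used 4710 bases for Ezh2 and 6803 bases for Ezh1, and merged GENCODE M21 exons give 6678 and 7440 bases. With these lengths the mean ratio went from 8.60 in subconfluent cells to 0.757 at 21 d, and with plain counts from 7.72 to 0.680. The fold between stages is the same under any length. At the table's lengths, Ezh1 made up 8.24% ± 0.379 (SD, n = 2) of the summed Ezh1 and Ezh2 RPKM in subconfluent cells and 50.5% ± 1.69 (SD, n = 2) at 21 d. At these lengths the sum itself fell from 24.1 ± 0.966 to 12.01 ± 0.466 RPKM (SD, n = 2). With GENCODE lengths the means of Ezh1 and Ezh2 were 1.81 and 15.6 RPKM in subconfluent cells, and 5.54 and 4.20 RPKM at 21 d.

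**Figure D2:**
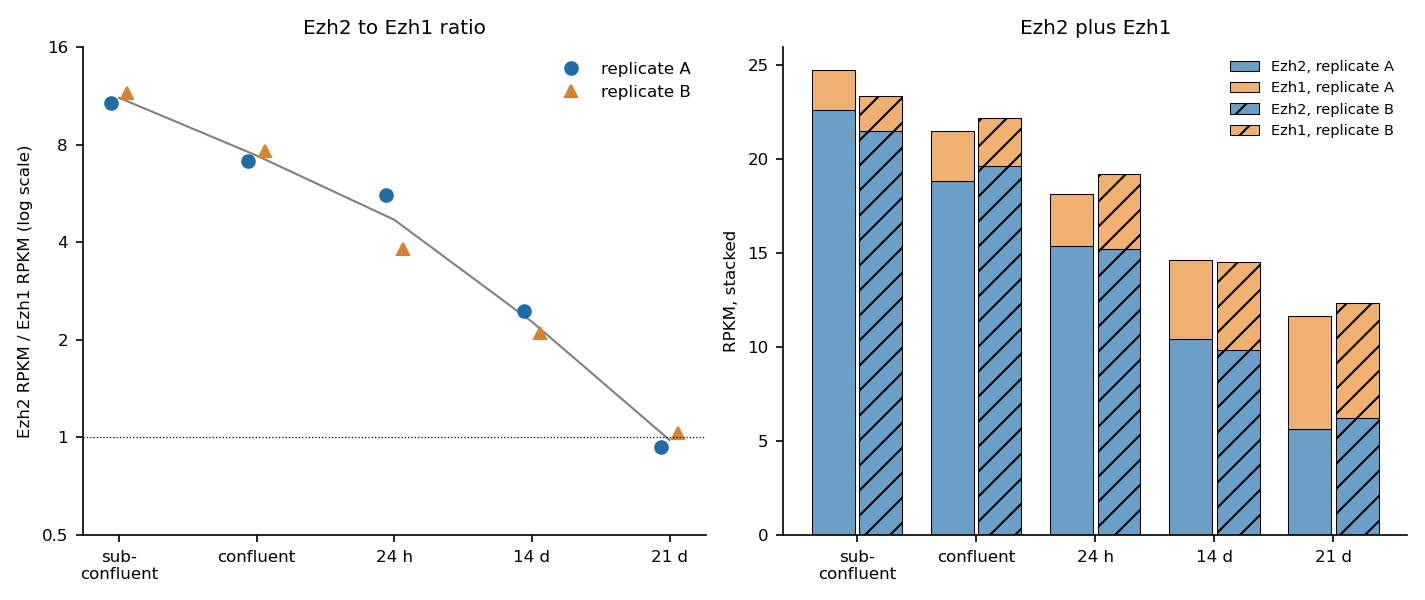
Left, ratio of Ezh2 to Ezh1 RPKM (log scale, dotted line at 1) in replicate A (circles) and B (triangles) at the 5 stages, with a line through the means; right, Ezh2 and Ezh1 RPKM stacked for each replicate (B hatched, y axis from 0). The ratio went from 10.8 and 11.5 in subconfluent cells to 0.935 and 1.03 at 21 d, and the stacked sum from a mean of 24.1 to 12.01 RPKM.

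Of the remaining core subunits, Suz12 and Eed behaved differently. Suz12 (ENSMUSG00000017548, plus strand of chr11:79993106-80034123 on mm10), which holds the core together, measured 23.7 and 21.99 RPKM in subconfluent cells, 22.2 and 20.0 RPKM in confluent cells, 11.4 and 17.2 RPKM at 24 h, 11.2 and 11.2 RPKM at 14 d, and 9.83 and 9.85 RPKM at 21 d. In RPKM, all replicates of 14 d and 21 d lay below all earlier samples, but replicate A at 24 h was close to the 14 d level. In counts per library size after TMM scaling (CPM), the scale tested, the 14 d replicates (38.2 and 39.5) lay slightly above it (37.5). Suz12 was 2.14-fold lower at 21 d than in subconfluent cells (log2 fold change -1.10 ± 0.15 SE, adjusted p = 8.2e-04, edgeR). From confluence to 14 d it fell by 0.69 ± 0.15 on the log2 scale (adjusted p = 0.012).

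Eed (ENSMUSG00000030619, minus strand of chr7:89954654-89980983 on mm10), which binds the methylated histone tail, measured 13.7 and 11.5 RPKM in subconfluent cells, 12.3 and 13.7 RPKM in confluent cells, 12.2 and 11.98 RPKM at 24 h, 9.501 and 9.34 RPKM at 14 d, and 9.29 and 9.79 RPKM at 21 d. The 4 late samples lay below the 6 early ones. The change from subconfluent cells to 21 d was small and did not pass (log2 fold change -0.28 ± 0.11 SE, adjusted p = 0.065, edgeR), but it passed in 10 of 22 alternative settings. The RPKM ratio of Suz12 to Eed went from 1.82 ± 0.129 to 1.03 ± 0.0371 (SD, n = 2), and that of Ezh1 plus Ezh2 to Eed from 1.92 ± 0.159 to 1.26 ± 0.00141 (SD, n = 2). Against Suz12, the Ezh1 plus Ezh2 sum was at 1.05 ± 0.0129 in subconfluent cells and 1.22 ± 0.0452 at 21 d (SD, n = 2). These ratios are given as a description, at the table's lengths, and their level depends on the lengths used.

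Both histone chaperone genes fell. Rbbp4 (ENSMUSG00000057236, minus strand of chr4:129307100-129335370 on mm10) measured 22.4 and 22.8 RPKM in subconfluent cells, 20.3 and 20.3 RPKM in confluent cells, 15.1 and 16.9 RPKM at 24 h, 12.7 and 11.9 RPKM at 14 d, and 11.2 and 10.99 RPKM at 21 d. As for Ezh2, each stage lay below the one before without overlap. At 21 d Rbbp4 was 1.88-fold below subconfluent cells (log2 fold change -0.91 ± 0.07 SE, adjusted p = 5.3e-05, edgeR). The opposite-strand transcript Gm26722 shares 796 bases, 9.1% of the Rbbp4 exons, and had a mean count of 1949 against 7936 for Rbbp4. Whether counting used the strand is not given in the sources used here, so these reads cannot be told apart with certainty, and Gm26722 also fell by 0.94 ± 0.25 on the log2 scale (adjusted p = 0.015, edgeR).

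Rbbp7 (ENSMUSG00000031353, plus strand of chrX:162760402-162779092 on mm10) had the highest RPKM of the 10 genes at the first 4 stages. It measured 58.0 and 56.7 RPKM in subconfluent cells, 52.5 and 48.6 RPKM in confluent cells, 53.1 and 47.6 RPKM at 24 h, 34.1 and 33.9 RPKM at 14 d, and 26.6 and 25.5 RPKM at 21 d. Confluent and 24 h values overlapped, and the falls came at 14 d and 21 d. Rbbp7 was 2.03-fold lower at 21 d than in subconfluent cells (log2 fold change -1.02 ± 0.11 SE, adjusted p = 1.9e-04, edgeR). The ratio of Rbbp7 to Rbbp4 had a mean of 2.53 ± 0.0728 (SD, n = 2) in subconfluent cells and 2.35 ± 0.0363 (SD, n = 2) at 21 d, and was widest at 24 h with 3.51 and 2.81. The exact permutation p over the 5 stages was 0.0212, and also 0.0212 after adjustment over the 2 ratios. Without any one library outside 24 h this test no longer passed, and p reached at most 0.165.

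Of the Polycomb-like genes, Phf1 and Phf19 passed over the 5 stages and Mtf2 did not. Phf1 (ENSMUSG00000024193, plus strand of chr17:26933052-26937908 on mm10) measured 20.0 and 19.3 RPKM in subconfluent cells, 21.9 and 25.6 RPKM in confluent cells, 24.3 and 23.8 RPKM at 24 h, 26.4 and 25.2 RPKM at 14 d, and 41.3 and 44.9 RPKM at 21 d. Both 21 d replicates stood well above all other samples, while the confluent, 24 h and 14 d values overlapped in part in RPKM. Phf1 was 2.38-fold higher at 21 d than in subconfluent cells (log2 fold change 1.25 ± 0.10 SE, adjusted p = 6.7e-05, edgeR), and most of this rise fell between 14 d and 21 d (0.67 ± 0.10, adjusted p = 0.0071). The opposite-strand gene Cuta shares 1370 bases, 39.3% of the Phf1 exons, and had a mean count of 5396.9 against 4431 for Phf1. The level of Phf1 is therefore uncertain. Cuta itself changed by 0.01 ± 0.20 from subconfluent cells to 21 d (adjusted p = 0.97, edgeR).

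Mtf2 (ENSMUSG00000029267, plus strand of chr5:108065674-108109004 on mm10) measured 5.56 and 4.41 RPKM in subconfluent cells, 4.86 and 4.64 RPKM in confluent cells, 1.86 and 5.05 RPKM at 24 h, 4.29 and 3.78 RPKM at 14 d, and 3.93 and 3.78 RPKM at 21 d. Replicate A at 24 h was the lowest of the 10 samples and replicate B the second highest. No comparison passed, and from subconfluent cells to 21 d the change was -0.26 ± 0.37 (log2 ± SE, adjusted p = 0.60, edgeR). Tmed5, on the opposite strand, shares 395 bases, 6.93% of the Mtf2 exons, and had a mean count of 4245.4 against 814 for Mtf2. Tmed5 fell by 0.60 ± 0.12 from subconfluent cells to 21 d (adjusted p = 0.0051, edgeR).

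Phf19 (ENSMUSG00000026873, minus strand of chr2:34893757-34914026 on mm10) was the only one of the 10 genes below 1 RPKM in all samples. It measured 0.563 and 0.655 RPKM in subconfluent cells, 0.580 and 0.572 RPKM in confluent cells, 0.440 and 0.456 RPKM at 24 h, 0.819 and 0.766 RPKM at 14 d, and 0.421 and 0.490 RPKM at 21 d. Both 14 d values lay above all other samples. Phf19 rose from 24 h to 14 d (log2 fold change 0.95 ± 0.16 SE, adjusted p = 0.0094, edgeR) and fell again to 21 d (-0.87 ± 0.16, adjusted p = 0.016, edgeR). Its counts were 74 to 370 per sample, the lowest of the 10 genes. The Phf1 share of the summed RPKM of the Polycomb-like genes went from 77.9% ± 1.88 in subconfluent cells to 90.9% ± 0.596 at 21 d (SD, n = 2). The Mtf2 share went from 19.7% ± 2.26 to 8.14% ± 0.65 (SD, n = 2), although Mtf2 itself passed in no comparison. The level of these shares also depends on the gene lengths used. It depends as well on how reads from the bases shared with Cuta and Tmed5 were counted, which is not given.

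Jarid2 (ENSMUSG00000038518, plus strand of chr13:44729474-44921643 on mm10), an accessory subunit that binds chromatin and nucleosomes, measured 1.26 and 1.33 RPKM in subconfluent cells, 1.61 and 1.40 RPKM in confluent cells, 1.30 and 1.94 RPKM at 24 h, 1.93 and 1.76 RPKM at 14 d, and 1.38 and 1.27 RPKM at 21 d. In RPKM, the 14 d values lay above those of confluent cells and of 21 d, but those of 24 h spanned nearly the whole range. No comparison passed. The nearest were 0.51 ± 0.17 from confluence to 14 d (log2 ± SE, adjusted p = 0.054, edgeR) and -0.55 ± 0.17 from 14 d to 21 d (adjusted p = 0.091, edgeR).

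**Figure D3:**
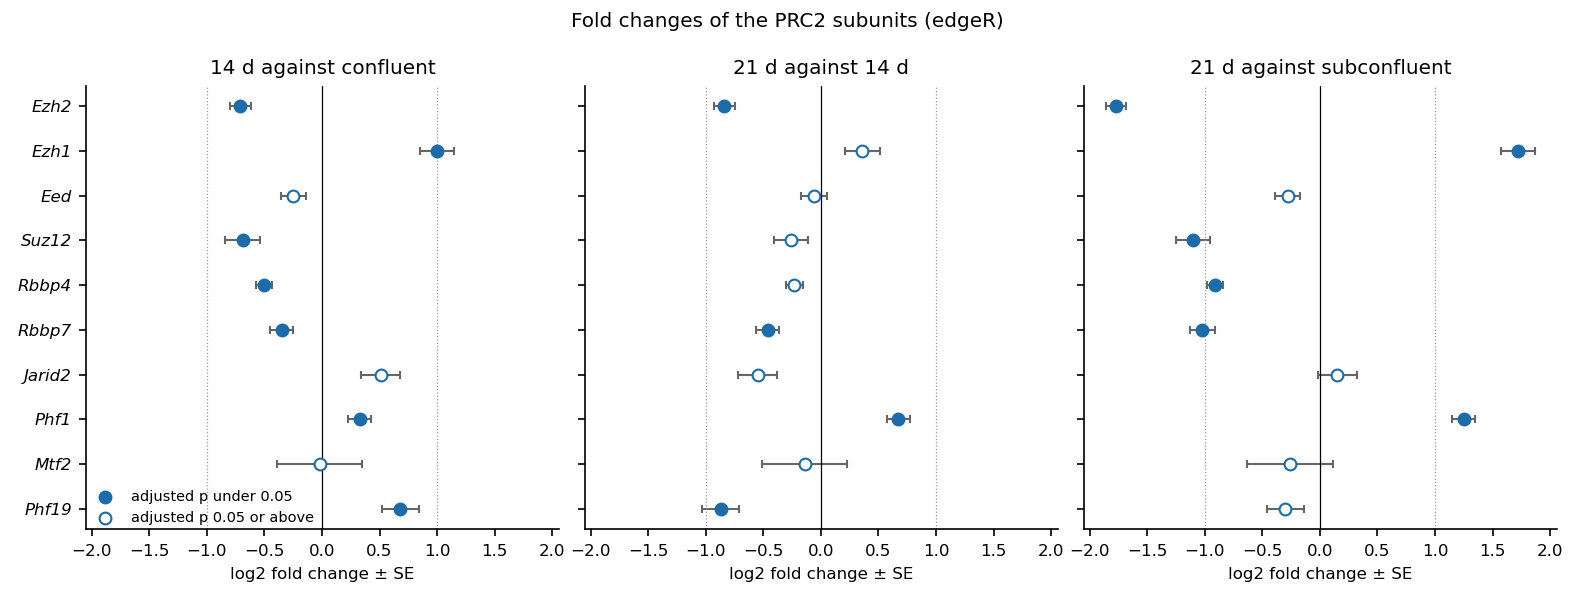
Log2 fold change with its SE (x axis) of the 10 genes in 3 comparisons by edgeR; filled points passed an adjusted p of 0.05 and dotted lines mark 2-fold. Ezh2 at -1.77 and Ezh1 at 1.72 lay at opposite ends from subconfluent cells to 21 d, and Phf19 was at 0.68 from confluence to 14 d and at -0.87 from 14 d to 21 d.

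The order of the levels changed with culture. In subconfluent cells, Rbbp7 was followed by Suz12, Rbbp4, Ezh2 and Phf1, between 22.8 and 19.7 RPKM, then Eed at 12.6 RPKM, Mtf2 at 4.99 RPKM, Ezh1 at 1.98 RPKM, Jarid2 at 1.30 RPKM and Phf19 at 0.609 RPKM. Suz12, Rbbp4 and Ezh2 overlapped between replicates and cannot be ordered. At 21 d the order was Phf1 at 43.1 RPKM, Rbbp7 at 26.1 RPKM, Rbbp4 at 11.1 RPKM, Suz12 at 9.84 RPKM, Eed at 9.54 RPKM, Ezh1 at 6.06 RPKM, Ezh2 at 5.95 RPKM, Mtf2 at 3.85 RPKM, Jarid2 at 1.33 RPKM and Phf19 at 0.456 RPKM. At the table's lengths the replicates of Ezh1 and Ezh2 overlapped at 21 d, whereas with GENCODE lengths Ezh1 lay above Ezh2, at 5.54 against 4.20 RPKM. Lengths bear on this order, since the table used 5223 bases for Rbbp7 where merged GENCODE exons give 2909, and 2824 bases for Mtf2 where they give 5698. With GENCODE lengths Rbbp7 was the highest at 21 d as well, at 46.8 against 29.8 RPKM for Phf1.

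Step by step, the early stages gave no calls. Between subconfluent and confluent cells, 0 of 10 genes passed in edgeR, with 3.28% of all genes passing. At an unadjusted p under 0.05 there were 4 (Ezh1, Ezh2, Phf1 and Rbbp4), and DESeq2 called 1. No share of all genes is given for counts at an unadjusted p, in DESeq2 or without one library. The shares given for adjusted edgeR calls do not apply to those counts. Without replicate A at 24 h edgeR called 2, and without replicate B at 24 h it called 1. From confluence to 24 h, 0 of 10 passed, with 5.15% of all genes passing. Here 4 had an unadjusted p under 0.05 (Ezh1, Ezh2, Rbbp4 and Suz12), DESeq2 called 3, and edgeR called 1 without replicate A at 24 h and 4 without replicate B at 24 h.

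Most calls came with the late stages. From confluence to 14 d, 7 of 10 passed, with 32.1% of all genes passing. Ezh2, Suz12, Rbbp4 and Rbbp7 were lower and Ezh1, Phf1 and Phf19 higher, against 15.3% and 16.9% of all genes. This split of 3 higher and 4 lower became 1 and 5 with library size alone or with limma-trend on log2(RPKM + 0.1), and 1 and 4 with no filter. Among all genes that passed, the share of higher ones was 52.5%, and 32.2% with library size alone. The call was lost for Phf1 under 13 of 22 alternative settings, for Rbbp7 under 10, for Phf19 under 7 and for Suz12 under 3. The Phf1 replicates of both stages overlapped in RPKM, at 21.9 and 25.6 against 26.4 and 25.2, but not in CPM after TMM scaling, where they were 33.1 and 38.9 against 45.9 and 45.0. At an adjusted p of 0.01, 3 passed (17.5% of all genes), and 0 passed with more than 2-fold as well (13.0% of all genes). Only 3 passed without confluent replicate A or without either 14 d replicate. From confluence to 21 d, which shares the confluent samples, 6 of 10 passed, with 42.8% of all genes passing, and these were the genes called against subconfluent cells. With more than 2-fold as well, 3 passed (21.1% of all genes).

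From 24 h to 14 d, 4 of 10 passed, with 17.3% of all genes passing. These were Ezh2 and Rbbp7, which fell (8.21% of all genes), and Ezh1 and Phf19, which rose (9.08% of all genes). At an adjusted p of 0.01 only Phf19 passed (5.72% of all genes), and 0 passed with more than 2-fold as well (5.98% of all genes). The count was 0 without either 14 d replicate, 2 without either subconfluent or either 21 d replicate, and 8 without replicate B at 24 h. Besides Ezh1, the call was lost for Rbbp7 under 7 of 21 settings and for Ezh2 and Phf19 under 3 each. From 14 d to 21 d, 4 of 10 passed, with 9.72% of all genes passing. Ezh2, Rbbp7 and Phf19 fell (5.95% of all genes) and Phf1 rose (3.77% of all genes). At an adjusted p of 0.01, Ezh2 and Phf1 passed (4.42% of all genes), and 0 passed with more than 2-fold as well (3.97% of all genes). Here the count was 8 without either 24 h replicate, 2 without replicate A at 21 d, and 1 without replicate B at 21 d or either 14 d replicate. Rbbp7 lost its call under 11 of 22 settings, Phf19 under 5 and Phf1 under 3, and Ezh2 under 0. Over all 5 stages, 7 of 10 passed the F test, with 48.9% of all genes passing, and those that did not were Eed (adjusted p = 0.11), Jarid2 (adjusted p = 0.051) and Mtf2 (adjusted p = 0.77). Without replicate B at 24 h all 10 passed.

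Across the 10 samples, the log2 CPM of Ezh2 correlated with those of Rbbp7 (r = 0.966) and Rbbp4 (r = 0.954), and inversely with Phf1 (r = -0.968) and Ezh1 (r = -0.944). These values describe one time course with 5 stages, in which any pair of genes with a steady trend correlates. Mtf2 and Phf19 followed none of the others closely, with the strongest correlation of Mtf2 at 0.45 with Suz12 and that of Phf19 at 0.551 with Jarid2. Among 12080 genes that averaged 5 CPM or more, the genes closest to Ezh2 were Ube2c, which acts in mitotic protein degradation, the importin Kpna2, the primase subunit Prim1, Gm10184 and Hmgb3 (r from 0.9975 to 0.9968). Those closest to Ezh1 were Rab5b, Rmnd5a, Slc35a5, Slc25a42 and Gdf6 (r from 0.9943 to 0.992).

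Genes of cell division moved with the falling subunits. All 27 genes of a proliferation list were lower at 21 d than in subconfluent cells, against 23.5% of all genes, with a median log2 fold change of -3.14, and their summed level went from 1523 and 1527 RPKM to 156 and 194 RPKM. The largest falls were those of Mybl2 (-4.31 ± 0.18 SE, adjusted p = 4.8e-06, edgeR) and the replication licensing factor Mcm5 (-4.12 ± 0.13, adjusted p = 2.5e-06, edgeR). The genes at the other end by the naming rule, Pcna and E2f1, still fell by 2.24 ± 0.11 and 2.05 ± 0.12 on the log2 scale. The fall of Ezh2, at -1.77, was smaller than these. E2f2, left out by that rule with a mean of 0.86 RPKM, fell least of the list. It gave -1.84 ± 0.21 on the log2 scale, close to Ezh2. From 14 d to 21 d, again all 27 were lower, against 5.95% of all genes. Their median was -1.86, against -0.03 over all genes tested. The part of cell division in the course of the subunit genes was not tested.

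Of the subunits outside the 10 genes, Aebp2, a cofactor of the core, measured 22.9 and 21.999 RPKM in subconfluent cells, 27.2 and 25.9 RPKM in confluent cells, 17.7 and 23.5 RPKM at 24 h, 17.0 and 17.5 RPKM at 14 d, and 17.4 and 16.4 RPKM at 21 d. It was lower at 14 d than at confluence (log2 fold change -0.41 ± 0.11 SE, adjusted p = 0.030, edgeR), and gave -0.29 ± 0.11 from subconfluent cells to 21 d, which did not pass (adjusted p = 0.065). Lcorl fell by 1.16 ± 0.11 over the whole course (adjusted p = 1.5e-04, edgeR), from 2.16 and 2.07 RPKM to 0.841 and 0.903 RPKM. Lcor gave -0.41 ± 0.63 and did not pass (adjusted p = 0.63, edgeR). Epop reached at most 0.028 RPKM and Ezhip, an inhibitor of the complex, was listed at 0 in all samples. Both were left out by the filter.

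The H3K27 demethylase genes, whose products remove the mark, gave 1 higher and none lower of 2 from subconfluent cells to 21 d. Of all genes, 27.3% passed and were higher and 23.5% lower. Kdm6b measured 3.41 and 3.03 RPKM in subconfluent cells, 4.67 and 4.69 RPKM in confluent cells, 3.16 and 5.86 RPKM at 24 h, 5.71 and 5.49 RPKM at 14 d, and 8.30 and 7.35 RPKM at 21 d. Kdm6b was 2.64-fold higher at 21 d than in subconfluent cells (log2 fold change 1.40 ± 0.23 SE, adjusted p = 0.0018, edgeR), and its 21 d replicates lay above all other samples. Kdm6a gave 0.19 ± 0.27 (adjusted p = 0.58, edgeR), and its level was 2.68 and 2.70 RPKM before confluence, 2.82 and 2.86 RPKM at 21 d, and 1.49 to 3.11 RPKM over all samples.

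Polycomb repressive complex 1, which ubiquitinates histone H2A and binds the mark made by PRC2, had genes that passed in both directions. Of 23 genes, 6 were higher and 7 lower at 21 d than in subconfluent cells, against 27.3% and 23.5% of all genes, so both shares were near the background, and the median log2 fold change was -0.03. Cbx7, a reader of the mark, went from a mean of 0.450 to 2.41 RPKM (2.51 ± 0.72 SE, adjusted p = 0.022, edgeR) and Cbx8 from 3.35 to 5.78 RPKM (0.90 ± 0.15, adjusted p = 0.0019, edgeR). Pcgf5 (-1.17 ± 0.11) and L3mbtl2 (-0.85 ± 0.09) fell most among those that passed. Of 6 genes of the H2A deubiquitinase complex PR-DUB, 2 passed and were lower, against 23.5% of all genes. These were Asxl1, by 0.88 ± 0.13, and Foxk2, by 0.44 ± 0.10 on the log2 scale. None passed and was higher, against 27.3% of all genes.

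Since Rbbp4 and Rbbp7 also belong to other chromatin complexes, 24 genes of these were examined. From subconfluent cells to 21 d, 13 were lower, against 23.5% of all genes, 1 was higher, against 27.3% of all genes, and 10 did not pass, with a median log2 fold change of -0.52. The chromatin assembly factor genes Chaf1a (-3.02 ± 0.12 SE, adjusted p = 3.6e-06, edgeR) and Chaf1b (-3.01 ± 0.15, adjusted p = 8.2e-06, edgeR) fell from 41.9 to 4.78 RPKM and from 24.7 to 2.83 RPKM. Mbd2 was the 1 gene that rose (0.20 ± 0.07, adjusted p = 0.049, edgeR), and Mta3 fell least (-0.38 ± 0.08, adjusted p = 0.0067, edgeR).

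Genes reported as targets of PRC2 in other cells were mostly at low levels. Of 26 such genes, 6 were listed at 0 in all samples and 16 stayed below 0.1 RPKM. The share of all genes at these levels was not computed, but only 22421 to 25088 of 40620 genes had a count in each sample. Of the 26 genes, 12 passed the filter, near the share of all genes, where 20808 of 40620 passed. Cdkn2a and Cdkn2b, named here after their values were seen, had no count in any sample, which allows up to 0.0671 CPM in the shallowest library and 0.0184 in the deepest. From subconfluent cells to 21 d, 4 were higher and 2 lower, so that 6 of 12 passed, as many as the background of 50.7% would give. Pax6 went from 1.10 to 2.31 RPKM (1.19 ± 0.16 SE, adjusted p = 6.2e-04, edgeR) and Wnt10b from 11.6 to 18.95 RPKM (0.83 ± 0.17, adjusted p = 0.0060, edgeR). Msx2 fell from 3.12 to 0.955 RPKM (-1.59 ± 0.11, adjusted p = 3.6e-05, edgeR) and Dlx5 from 50.4 to 35.6 RPKM (-0.38 ± 0.13, adjusted p = 0.041, edgeR). The others that were higher, Cdkn1c and Gata6, did not exceed 0.126 RPKM in any sample.

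**Figure D4:**
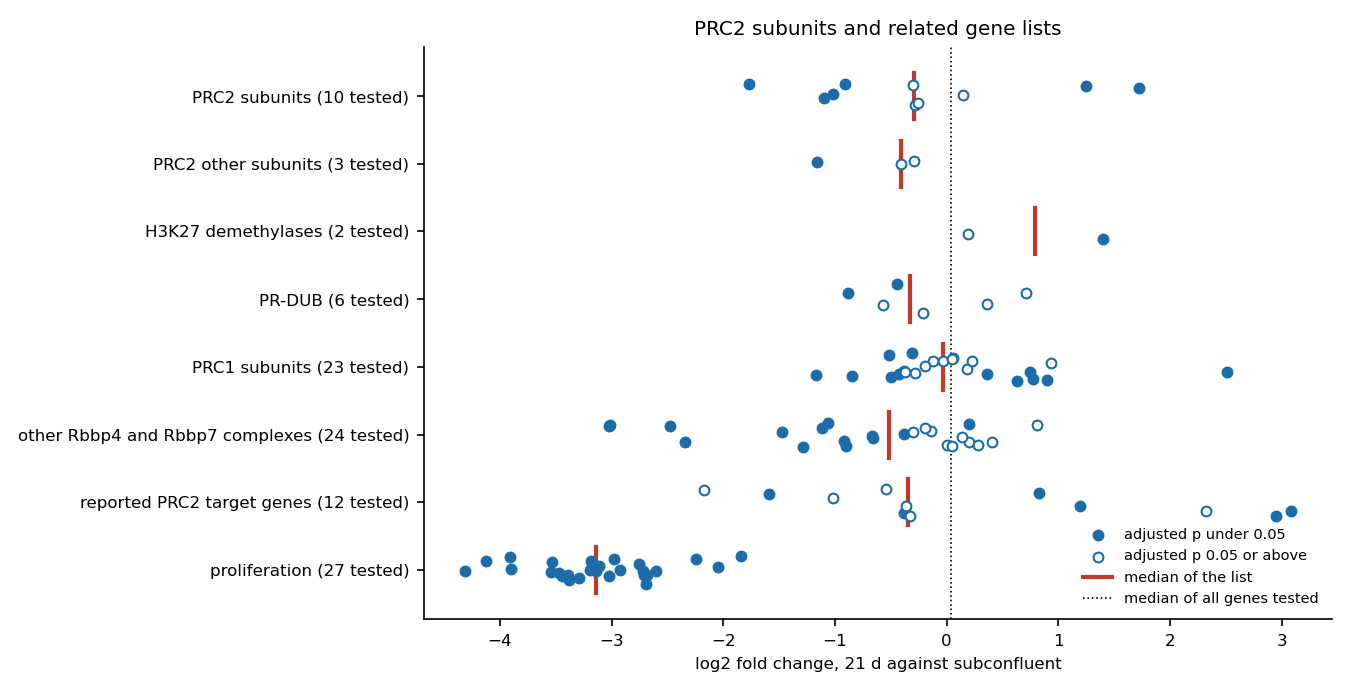
Log2 fold change from subconfluent cells to 21 d (x axis) of each gene tested in the 10 PRC2 subunits and 7 related lists; filled points passed an adjusted p of 0.05, red bars are list medians and the dotted line is the median of all genes tested, 0.04; the vertical spread within a list only separates points. All 27 proliferation genes lay to the left with a median of -3.14, whereas the PRC2 subunits reached from -1.77 to 1.72 with a median of -0.29.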

How the data were processed

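Gene counts and RPKM of 10 RNA-seq libraries (5 stages, replicates A and B) were used. The authors deposited whole-number counts per Ensembl gene and RPKM values, which they had computed from 51-base paired-end reads, with mm10, TopHat2 2.0.9 and R 3.0.1 among the names in the submitters' processing notes. The roles of the tools, the annotation and the strand setting of counting are not given in the sources used here. Total counts (44736156 to 162939333) were 1.44 to 1.60 times the read numbers that the RPKM values imply. Replicate A at 14 d and replicate B at 21 d were run on 2 lanes and their merged columns were used. All value columns were mapped (0 columns of other samples).

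Counts were tested with edgeR 4.0.16 (R 4.3.3; filterByExpr, 20808 genes; TMM; quasi-likelihood F test; all 10 samples in one fit of 5 groups), with Benjamini-Hochberg adjustment over all genes tested and a threshold of 0.05. Standard errors were derived from the fold changes and their F statistics. RPKM were used for levels and ratios, the latter tested by an exact permutation test (numpy 2.4.6 in Python 3.11.15). Alternatives were DESeq2 1.42.0, limma-trend 3.58.1 on log2(RPKM + 1) and log2(RPKM + 0.1), other scalings and filters, a replicate block, lane sums, stricter thresholds and each library left out. Coordinates, exon overlaps and lengths came from GENCODE M21, on the mm10 assembly, and the lengths were added as an alternative after the data were seen. The edgeR script was first tested on simulated counts. Nothing states that replicates came from separate cultures, so p-values measure only the spread between these samples. Floors (3 counts) cover counting error only.

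The subunit genes and lists were chosen with earlier results of these data known. Named were all 10 genes, all genes of the lists of other PRC2 subunits and H3K27 demethylases, and for each other list the 2 highest and 2 lowest fold changes (21 d against subconfluent) among genes passing with a mean of at least 1 RPKM, and the 5 genes nearest to Ezh2 and Ezh1 by Pearson's r.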

Additional observations from a re-analysis of the deposited data

How the results depend on the processing

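The calls for Ezh2, Ezh1, Suz12, Rbbp4, Rbbp7 and Phf1 at 21 d against subconfluent and against confluent cells passed under all 22 alternatives, and the 11.4-fold fall of the Ezh2 to Ezh1 ratio kept its call (log2 difference -3.58 to -3.44 with one library left out). Of 678 gene values recomputed, 585 kept direction and side of the threshold, 81 lost and 11 gained the call, and 1 reversed, Jarid2 from subconfluent cells to 21 d (-0.01 with library size alone). Counts of calls moved as follows. For confluent against subconfluent cells, 0 became 1 with DESeq2, 1 without the 24 h samples and 0 to 2 with one library left out. For 24 h against confluent, 0 became 3 with DESeq2 and 0 to 4 with one library left out. For 14 d against 24 h, 4 became 0 with only the 2 groups compared, 0 with a 2-fold minimum, 1 at an adjusted p of 0.01, and 0 to 8 with one library left out. For 21 d against 14 d, 4 became 2 with no filter, 8 with only the 2 groups compared, 8 without the 24 h samples, 0 with a 2-fold minimum, 2 at 0.01, and 1 to 8 with one library left out. For 14 d against confluent, 7 became 0 with a 2-fold minimum, 3 at 0.01, and 3 to 9 with one library left out, and for 21 d against confluent, 6 became 3 with a 2-fold minimum. The fewer samples or the stricter threshold are part of these alternatives by construction, and beyond that the cause was not tested. Library size alone or upper-quartile factors moved the median of all genes from 0.04 to -0.116 or 0.167 for 21 d against subconfluent cells, and the share of higher genes among those passing from 53.7% to 45% or 61%.

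The labels do not say whether the letters A and B pair samples across stages. The correlation of deviations between equally lettered samples was -0.331 to 0.318 over 10 pairs of stages, which cannot decide this. With a replicate block, 3 genes passed for 14 d against 24 h, 6 for 14 d against confluent, 3 for 21 d against 14 d, 6 for 21 d against confluent, 6 for 21 d against subconfluent cells and 7 over the 5 stages. The Rbbp7 to Rbbp4 ratio gave a log2 difference of -0.107 with the replicate block (permutation p = 0.05), and -0.136 to -0.078 with one library left out.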

Other observations

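For replicate A at 14 d and replicate B at 21 d, the merged counts exceeded the sum of both lanes. The excess was 8.74% for Eed and 10.31% for Mtf2 at 14 d and 9.08% for Mtf2 at 21 d, and at most 3.28% for the other subunit genes and samples.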
